A study of Homo sapiens with 90 samples.

Results

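HepG2 is an established human liver tumour cell line, and the values described here are its expression with vehicle alone, on the 3 DMSO arrays that were normalized with the fenbuconazole samples. They were chosen by their titles, as 3 of the 90 deposited columns. Those columns hold 84 different arrays, because the same 3 DMSO arrays were deposited again in an imazalil set and a 2,4-D set (6 columns, described with the closing section). Cells were plated in multiwell plates and exposed 24 hours after plating. The same normalization set holds 30 arrays: HepG2 cells with fenbuconazole at 9 doses (0.001, 0.01, 0.1, 1 and 10 µM and, between them, 0.003, 0.03, 0.3 and 3 µM), 3 arrays a dose, against HepG2 cells with DMSO, 3 arrays. All cells, treated or not, received the DMSO solvent at 0.2% of the medium for 24 hours. The labels number the 3 DMSO arrays and do not say that they came from separate cultures, so the spread between them may be technical. HepG2 is a single line grown from 1 tumour, and no liver tissue or other cell type was hybridized in the set.

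Hepatocytes make most plasma proteins, clear ammonia through the urea cycle, turn cholesterol into bile acids and oxidize and conjugate foreign compounds. Cultured hepatoma lines are known to keep much of the secretory program while carrying genes of the fetal liver and of dividing cells. Cytochrome P450 enzymes oxidize drugs, transferases then attach glucuronate, sulfate or glutathione, and receptors such as AHR set the amount of these enzymes.

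Each array reports log2 probe set intensities, and a level here is the log2 value minus the median of that array over all non-control probe sets. Of 54715 probe sets, 40914 had 1 gene symbol, and each of 19774 genes was read from its probe set of highest mean on the 3 DMSO arrays. A gene was called above the median where it lay at least 1 log2 unit (2-fold) above it on all 3 arrays, and strongly above where it lay at least 4 log2 units (16-fold) above it on all 3. By these rules 9553 of 19774 genes were called (48.3%), 5089 of them strongly (25.7%), 466 passed on some arrays only and 9755 on none. The median gene lay 0.91 above the array median. Of 23 non-specific control probe sets, 21 were not called, 20 of them under the line on all 3 arrays, and the 18 with up to 20 GC bases lay between -1.02 and -0.08. Those of 24 and 25 GC bases were called, at means of 1.35 and 4.46, so a gene called just past the line can average less than a control. Probe sets bind with different strength, so a distance from the median does not order transcripts by amount, and a gene that was not called is not thereby silent. Values ranged from 1.75 to 13.51, the array medians were 2.97, 3.04 and 3.01, and the DMSO arrays correlated with each other at r = 0.996 to 0.997 across the 19774 genes, which are not independent replicates. The median gene called above had an SD of 0.11 log2 units over the 3 arrays.

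The marker genes of the cell type were all strongly above the median. ALB, the main plasma protein, lay 10.19, 9.92 and 10.08 log2 units above the median on DMSO arrays 1 to 3, a mean of 10.06 ± 0.14 (SD, n = 3) or 1069-fold. APOA1, the main protein of high-density lipoprotein, lay 9.73, 9.58 and 9.63 above it, a mean of 9.65 ± 0.07 (SD, n = 3). AFP, the fetal counterpart of albumin, lay 9.49, 9.48 and 9.43 above it, a mean of 9.46 ± 0.03 (SD, n = 3). In each marker the SD over the 3 arrays was at most 0.14 log2 units. The other hepatocyte markers were SERPINA1 at 10.01, TF at 9.95 and TTR at 7.06. The 4 probe sets of ALB ranged from 2.86 to 10.06 above the median and all 4 were called, which shows how far the choice of probe set moves a level. The probe sets with the highest signal of all genes were those of EEF1A1, a translation elongation factor, at 10.44, SH3KBP1 at 10.40, the ferritin light chain FTL at 10.31 and the ribosomal protein genes RPL37A, RPL23A, RPS15A, RPS10, RPS2, RPS18 and RPS3A between 10.18 and 10.31. SH3KBP1, an adaptor protein of receptor uptake, reached that level on 1 of its 4 probe sets, and the other 3 lay at 5.01, 4.92 and 0.46.

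To show what lies in front of such genes, stretches of 150 bases before the RefSeq start (assembly GRCh38.p14) are given for hepatocyte markers, a cell cycle kinase, a sterol enzyme and a set of enzymes with low values. Of the 19774 genes, 15397 had a promoter sequence, APOA1 not among them. Capitals mark 3 short motifs, each searched on both strands. The TATA box was written as TATAAA. The GC box was written as GGGCGG. The core of the xenobiotic response element was written as GCGTG. No 2 matches overlapped in the stretches shown. The sequences run 5′ to 3′ along the gene's own strand.
ALB (chr4:73404137-73404286, plus strand): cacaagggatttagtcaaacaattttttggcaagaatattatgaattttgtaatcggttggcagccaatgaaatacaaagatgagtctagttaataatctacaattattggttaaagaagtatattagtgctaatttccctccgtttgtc
AFP (chr4:73436071-73436220, plus strand): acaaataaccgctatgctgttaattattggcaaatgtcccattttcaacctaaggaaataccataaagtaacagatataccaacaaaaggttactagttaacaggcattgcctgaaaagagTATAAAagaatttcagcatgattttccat
SERPINA1 (chr14:94390636-94390785, minus strand): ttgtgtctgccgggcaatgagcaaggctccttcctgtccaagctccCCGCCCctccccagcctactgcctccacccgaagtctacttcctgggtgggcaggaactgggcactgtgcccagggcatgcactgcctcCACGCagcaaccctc
CDK1 (chr10:60778181-60778330, plus strand): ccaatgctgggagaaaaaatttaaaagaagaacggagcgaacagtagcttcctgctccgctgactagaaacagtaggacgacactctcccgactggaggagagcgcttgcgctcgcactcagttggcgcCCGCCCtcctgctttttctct
HMGCS1 (chr5:43313413-43313562, minus strand): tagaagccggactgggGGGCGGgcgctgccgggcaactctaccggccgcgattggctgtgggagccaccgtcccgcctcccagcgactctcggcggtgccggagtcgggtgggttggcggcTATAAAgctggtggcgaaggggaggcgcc
CYP1A1 (chr15:74725529-74725678, minus strand): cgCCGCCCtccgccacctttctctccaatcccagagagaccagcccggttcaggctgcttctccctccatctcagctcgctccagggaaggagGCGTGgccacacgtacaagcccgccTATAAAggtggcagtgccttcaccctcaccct
CYP3A4 (chr7:99784185-99784334, minus strand): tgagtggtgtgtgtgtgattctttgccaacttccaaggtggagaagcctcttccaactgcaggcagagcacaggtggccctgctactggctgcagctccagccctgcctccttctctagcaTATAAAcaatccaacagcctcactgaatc
ARG1 (chr6:131573076-131573225, plus strand): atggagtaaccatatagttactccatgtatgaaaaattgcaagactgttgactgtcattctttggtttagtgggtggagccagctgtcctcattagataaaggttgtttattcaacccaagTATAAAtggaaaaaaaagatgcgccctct
AFP, HMGCS1, CYP1A1, CYP3A4 and ARG1 carried TATAAA at 29 to 32 bases before the start, at very different levels: 9.46 for AFP, 5.48 for HMGCS1, 1.60 for CYP1A1, 0.92 for CYP3A4 and -0.09 for ARG1. SERPINA1, CDK1, HMGCS1 and CYP1A1 carried a GC box within the stretch, and ALB carried none of the 3 motifs. The GCGTG core began 57 bases before the start in CYP1A1 and 15 bases before it, on the opposite strand, in SERPINA1. Over the 250 bases before the start, the shares differed between the called genes and the others. GGGCGG stood before 69.0% of the 8013 genes called above that had a sequence and before 41.8% of the 7019 not above, beside 56.4% of the 15397 measured genes with a sequence and 42.3% of all 27305 RefSeq promoters. TATAAA stood before 4.95% of the called genes and before 12.3% of those not above, beside 8.37% of the measured genes and 11.1% of all promoters. GCGTG stood before 47.1% of the called genes and 30.5% of those not above, beside 39.3% of the measured genes and 31.9% of all promoters. All 14 sterol and fatty acid synthesis genes with a sequence held GGGCGG, while 5 of 25 genes of secreted plasma proteins did. TATAAA stood before 8 of 19 genes of the P450 list. These counts by list stand beside the same shares of the measured genes. A match is a description of letters and was not tied to any level by a test.

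Listed genes were grouped by role in 26 lists of 537 genes, of which 477 were measured. Of liver genes, 133 of 191 were called (69.6%), of xenobiotic genes 68 of 115 (59.1%), of tumour genes 89 of 100 (89.0%), and of markers of other cells and tissues 12 of 75 (16.0%), beside 48.3% of all genes. The lists group genes by known function but were chosen with earlier results of these data known, and the shares are counts without a test. The 48.3% of all genes stands beside the counts of single lists below as well. Each gene was read from its highest probe set. Called genes had 2.48 probe sets on average and the others 1.69, against 2.37 and 2.09 for listed genes. The part of this number in the shares was not tested. The shares also depend on the threshold. Against the highest non-specific control, which averaged 4.46 log2 units above the median, 85 liver, 33 xenobiotic, 66 tumour and 7 other-cell genes were called, beside 4170 of all genes. Against the controls of up to 20 GC bases, an alternative chosen after seeing the data, 23 of the 75 markers of other cells were called. At that setting 155 liver, 81 xenobiotic and 92 tumour genes were called, beside 12008 of all 19774 genes.

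**Figure D1:**
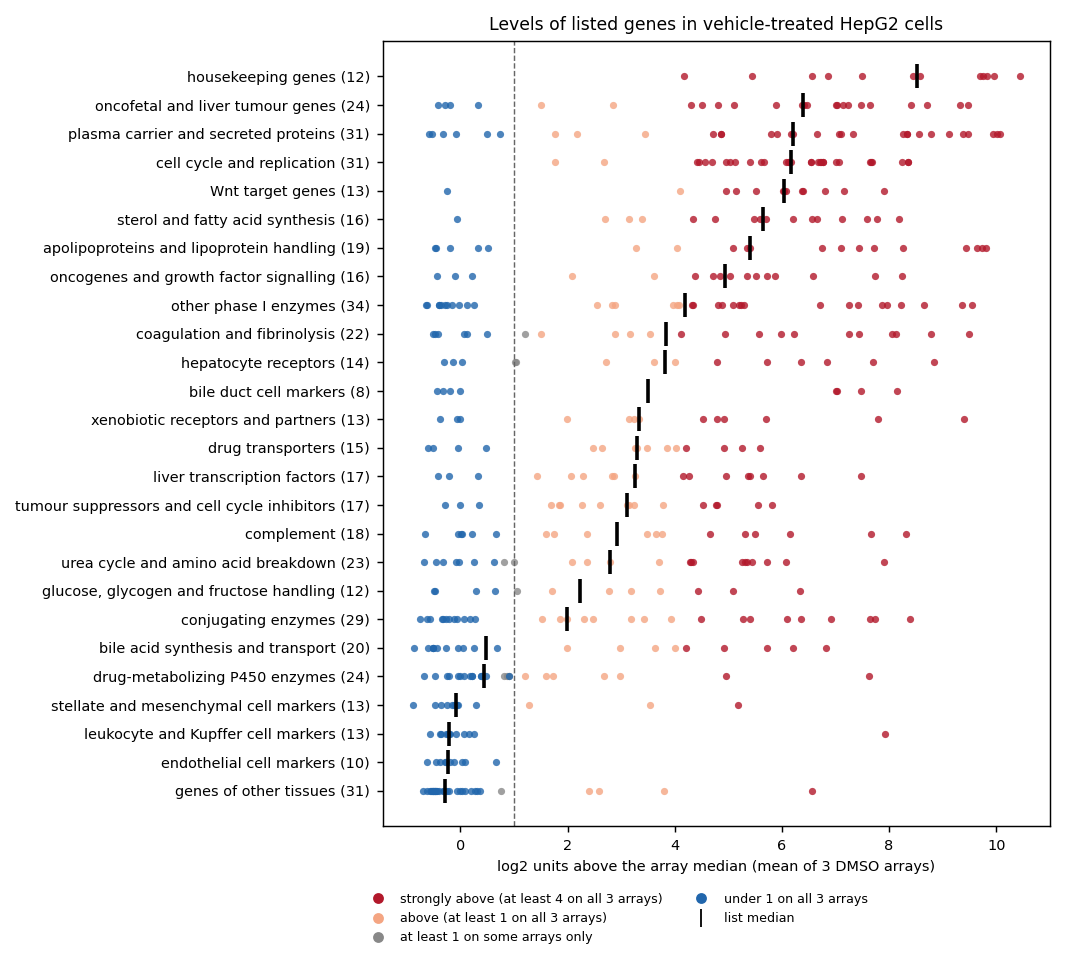
Each point is a gene, placed by its mean distance from the array median over 3 DMSO arrays (log2 units), in rows by gene list with the number measured. Colours give the call, black ticks the list median and the dashed line the distance of 1. All 31 cell cycle genes lie right of the line, and the 10 endothelial markers lie left of it.

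Secreted plasma proteins were called for 25 of 31 genes, 22 of them strongly, with a list median of 6.21. After ALB came SERPINA1, an inhibitor of neutrophil elastase, at 10.12, 9.90 and 10.01, then TF, the iron carrier transferrin, at 10.03, 9.89 and 9.93, and AHSG, the mineral-binding fetuin A, at 9.52, 9.25 and 9.39. ITIH2, a heavy chain of a hyaluronan-binding inhibitor, averaged 9.11 ± 0.11 (SD, n = 3). The lowest members were FGF21 at -0.59, CRP at -0.53 and LECT2 at -0.33. FGF21 is a fasting hormone and CRP the main acute-phase protein of human plasma, and neither reached the line on any array. Apolipoproteins and lipoprotein proteins were called for 14 of 19 genes, with APOH at 9.82, APOA2 at 9.73, APOB, the backbone of very low-density lipoprotein, at 9.44, APOE, the ligand of remnant receptors, at 8.26 and APOC1 at 7.73. LPA, PON1 and APOC4 lay at -0.48, -0.46 and -0.19.

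Clotting and fibrinolysis genes were called for 15 of 22, and complement genes for 12 of 18. The 3 fibrinogen chains stood together at the top. FGG lay 9.64, 9.41 and 9.40 above the median, FGA 8.89, 8.73 and 8.70, and FGB 8.29, 8.13 and 7.97. All 3 chains were highest on DMSO array 1. CPB2, an inhibitor of clot lysis, averaged 8.05, SERPIND1, a thrombin inhibitor, 7.43 and F2, prothrombin, 7.25. HRG, F13B and F9, the last being clotting factor IX, lay between -0.51 and -0.43. Of complement, C3, the central component, lay 8.37, 8.25 and 8.35 above the median, followed by CFI at 7.66, C5 at 6.15, CFB at 5.49, C4BPB at 5.31 and C2 at 4.65. C9, the pore-forming component, lay at -0.58, -0.63 and -0.78, with C6 at -0.04 and C8G at 0.01.

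Liver transcription factors were called for 14 of 17 genes, with a list median of 3.25. CEBPB lay 7.57, 7.39 and 7.46 above the median and CEBPA 6.39, 6.38 and 6.28. Both are leucine zipper factors, CEBPA being tied to the mature hepatocyte. PROX1, a homeobox factor of liver and lymphatics, averaged 5.65 ± 0.02 (SD, n = 3). The pioneer factors FOXA2, FOXA1 and FOXA3 averaged 5.41, 5.38 and 4.15. TBX3 lay at 4.96 and NR0B2, a corepressor induced by bile acids, at 4.26. ATF5, GATA4, GATA6, HNF4G, ONECUT2 and ONECUT1 were called at 3.25, 2.86, 2.83, 2.28, 2.06 and 1.43. SALL4, CREB3L3 and NR5A2, the last being a nuclear receptor of bile acid synthesis, lay at 0.33, -0.21 and -0.42.

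Urea cycle and amino acid genes were called for 14 of 23 (60.9%), beside 48.3% of all genes, and the cycle itself was uneven. ASS1, which joins citrulline and aspartate, lay 6.04, 6.05 and 6.12 above the median, and ASL, which splits the product, 5.32, 5.25 and 5.19. CPS1, which makes carbamoyl phosphate, lay 4.50, 4.29 and 4.09 above it. OTC, the enzyme between CPS1 and ASS1, lay at -0.35, -0.43 and -0.62, and ARG1, which releases urea, at -0.12, 0.19 and -0.34. All 4 probe sets of ARG1 were below the line, while OTC has 1 probe set here. On all 3 arrays ASS1, ASL and CPS1 were past 4 log2 units, and OTC and ARG1 were under 1. GLUL, glutamine synthetase, was the highest of the list at 8.10, 7.75 and 7.87. HGD, SLC25A13, SLC25A15 and HPD, of tyrosine breakdown and mitochondrial transport, averaged 5.71, 5.44, 5.35 and 5.32. TDO2, tryptophan dioxygenase, averaged -0.69 and KMO -0.32.

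**Figure D2:**
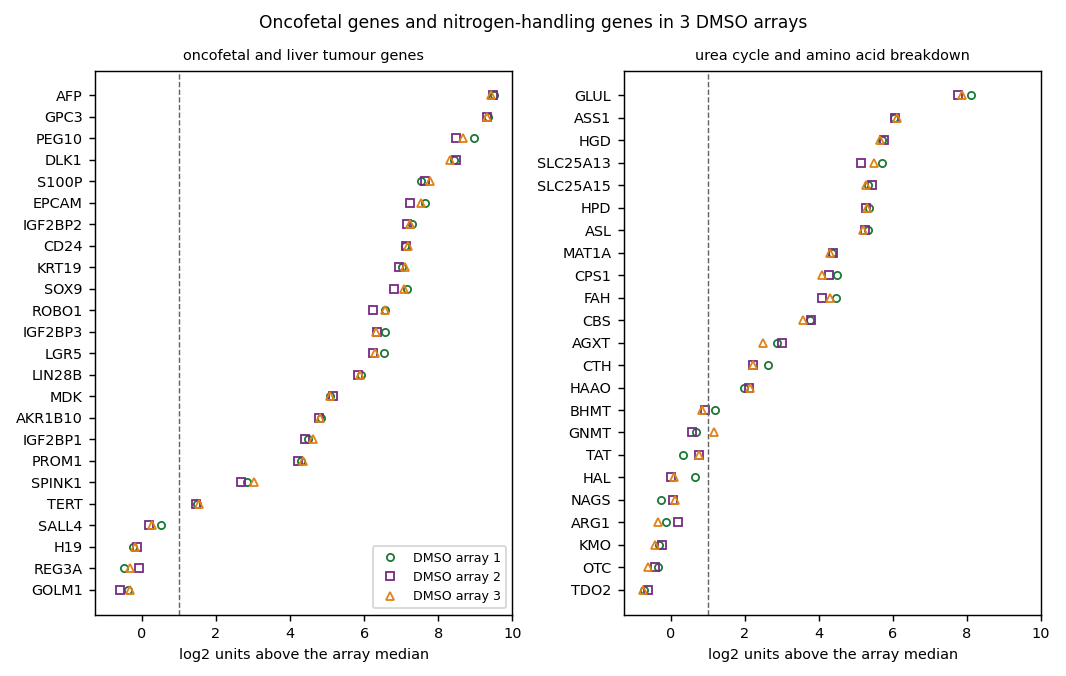
Distance from the array median (log2 units) of each oncofetal gene (left) and each urea cycle and amino acid gene (right) on the 3 DMSO arrays, 1 symbol per array, with the line of the call at 1. AFP and GPC3 lie above 9, and OTC and ARG1 lie left of the line beside ASS1 near 6.

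Glucose and glycogen genes were called for 7 of 12 (58.3%), beside 48.3% of all genes. PCK2, the mitochondrial phosphoenolpyruvate carboxykinase, averaged 6.33 ± 0.06 (SD, n = 3) and was strongly above. Its cytosolic counterpart PCK1 lay at 0.47, 0.19 and 0.22 and was not called. G6PC1, which releases free glucose, lay at -0.40, -0.54 and -0.46, and GYS2, liver glycogen synthase, at -0.61, -0.31 and -0.59. PYGL, glycogen phosphorylase, averaged 5.09 and KHK, fructokinase, 4.44. Hepatocyte receptors were called for 9 of 14 genes (64.3%), beside the same 48.3%. TFRC, which takes up transferrin, lay at 8.84 and the asialoglycoprotein receptor subunits ASGR2 and ASGR1 at 7.69 and 6.36. GHR, the growth hormone receptor, was lowest at -0.31.

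Bile acid genes were called for 9 of 20, a share of 45.0% that is near the 48.3% of all genes. CYP7A1, the rate-limiting enzyme of the classic pathway, lay at -0.88, -0.89 and -0.81 and was the lowest gene of the list. CYP27A1, of the alternative pathway, lay 6.30, 6.10 and 6.22 above the median. KLB and FGFR4, which form the receptor for FGF19, averaged 6.83 and 5.71, while FGF19 itself averaged -0.43. Of the uptake transporters, SLCO1B1 averaged -0.61, SLCO1B3 -0.52 and SLC10A1, the bile acid carrier of the sinusoid, -0.05. ABCC2 and ABCC3, which export conjugates, were called at 4.91 and 4.21. Sterol and fatty acid synthesis genes were called for 15 of 16, with SCD at 8.19, ACLY at 7.78, SQLE at 7.60, IDI1 at 7.12, CYP51A1 at 6.66 and FDPS at 6.57. INSIG1, a brake on this pathway, lay at -0.07 on the highest of its 3 probe sets.

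P450 enzymes were the lowest of the xenobiotic lists. The list holds 22 P450 genes and their electron donors POR and CYB5A, and 7 of the 24 were called (29.2%), beside 48.3% of all genes. Without the electron donors, 5 of 22 P450 genes were called (22.7%) and 0 strongly. At a threshold of 2 log2 units, or with the median over genes as the reference, 4 of the 24 were called, CYP4F3 and CYP4F12 beside the electron donors. POR, the reductase that feeds electrons to all microsomal P450s, lay 4.96, 4.96 and 4.93 above the median and CYB5A, cytochrome b5, 7.60, 7.54 and 7.73. The called P450 genes were CYP4F3 at 2.97, CYP4F12 at 2.67, CYP2U1 at 1.73, CYP1A1 at 1.60 and CYP2J2 at 1.20. Of these, CYP4F and CYP2J enzymes oxidize fatty acids. CYP2U1 was called on 1 of its 4 probe sets, and the others lay between -0.709 and -0.215. The non-specific control of 24 GC bases averaged 1.35, above the mean of CYP2J2 and not far below that of CYP1A1. CYP1A1, the oxidase of aromatic hydrocarbons, lay 1.33, 1.81 and 1.65 above the median. CYP3A4, the main drug oxidase of adult liver, lay 0.87, 0.93 and 0.95 above it, below the line on all 3 arrays, on a probe set whose name ends in x, the maker's mark for probes shared with other transcripts. Its other 3 probe sets lay between -0.38 and -0.12. CYP3A7, the fetal form, lay at 0.86, 0.74 and 1.09, CYP4F2 at 1.05, 0.56 and 0.98 and CYP1A2 at 1.25, 0.50 and 0.67. These 3 passed the line on 1 array each.
CYP2B6 averaged -0.05 ± 0.27, CYP2E1 -0.21 ± 0.17, CYP2D6 0.22 ± 0.19, CYP2A6 0.07 and CYP2C8 -0.48 ± 0.07 (SD, n = 3). All 5 were below the line on every array. CYP26A1, the retinoic acid hydroxylase, was lowest at -0.69. CYP3A5 had the widest spread of the list, with 0.35, -0.08 and 0.90 and an SD of 0.49. Genes of the CYP3A and CYP4F families are close copies of each other, so their single values are uncertain.

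**Figure D3:**
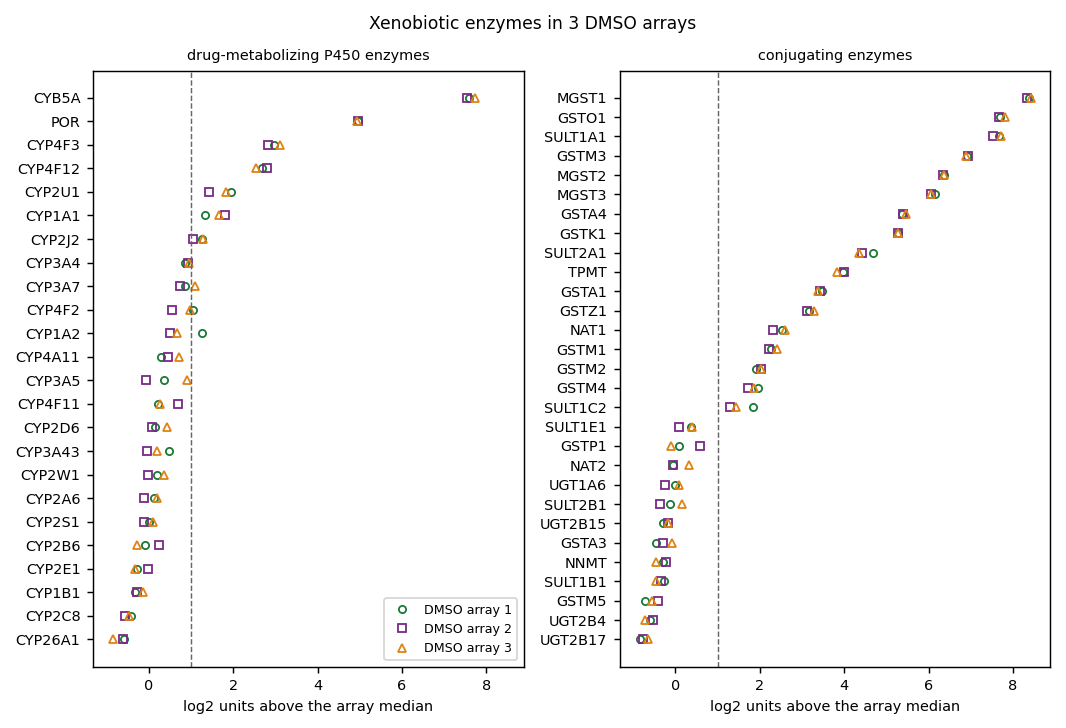
Distance from the array median (log2 units) of each gene of the P450 list (left) and each conjugating enzyme (right) on the 3 DMSO arrays, 1 symbol per array, with the line of the call at 1. The electron donors CYB5A and POR stand apart from the P450 genes, whose highest mean is 2.97.

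Other phase I enzymes were called for 23 of 34 genes, 17 strongly. AKR1C1, a steroid and aldehyde reductase, lay 9.54, 9.60 and 9.53 above the median and AKR1C2 9.31, 9.38 and 9.40. The AKR1C genes are near-identical copies, and their levels cannot be separated firmly. NQO1, a quinone reductase controlled by NFE2L2, lay 8.77, 8.64 and 8.53 above it. ADH5 averaged 8.22, ALDH1A1 7.96 and AKR1C3 7.87. The class I alcohol dehydrogenases, which oxidize ethanol in adult liver, lay at -0.65 for ADH1A, -0.63 for ADH1C and -0.41 for ADH1B.

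Conjugating enzymes were called for 17 of 29 genes (58.6%), beside 48.3% of all genes. MGST1, a microsomal glutathione transferase, led at 8.38, 8.33 and 8.43, followed by GSTO1 at 7.73, SULT1A1, a phenol sulfotransferase, at 7.65, GSTM3 at 6.92, MGST2 at 6.36 and MGST3 at 6.09. The lowest were UGT2B17 at -0.76, UGT2B4 at -0.62 and GSTM5 at -0.56. All 4 measured UGT genes, which add glucuronate, were not called. UGT1A1, UGT1A9, UGT2B7, UGT2B10 and UGT2B11 were listed but had no level here, so the family was read only in part. GSTP1 lay at 0.08, 0.57 and -0.12 on its single probe set. Drug transporters were called for 11 of 15, with the exporters SLC47A1 at 5.59, ABCC1 at 5.25 and ABCB1 at 4.02.

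Xenobiotic receptors and their partners were called for 10 of 13 genes. HSP90AB1, the chaperone that holds AHR in the cytosol, averaged 9.40, NFE2L2, the oxidative stress factor, 7.79, NR3C1, the glucocorticoid receptor, 5.70, KEAP1, which degrades NFE2L2, 4.78 and RXRA, the shared partner of nuclear receptors, 4.53. AHR lay 5.19, 4.59 and 4.98 above the median, and its partner ARNT 1.85, 2.17 and 1.96. AHRR, the AHR repressor, NR1I3, the constitutive androstane receptor CAR, and VDR lay at -0.39, -0.07 and -0.01.

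Oncofetal and liver tumour genes were called for 20 of 24, 18 strongly, with a median of 6.39. GPC3, a cell surface glypican of fetal liver and liver tumours, lay 9.34, 9.32 and 9.31 above the median, with an SD of 0.01. PEG10, an imprinted gene derived from a retrotransposon, lay 8.97, 8.47 and 8.67 above it, and DLK1, a marker of hepatoblasts, 8.42, 8.48 and 8.31. S100P, EPCAM, IGF2BP2, CD24, KRT19 and SOX9 averaged 7.65, 7.47, 7.23, 7.14, 7.02 and 7.01. ROBO1, IGF2BP3, LGR5, LIN28B, MDK, AKR1B10, IGF2BP1 and PROM1 averaged between 4.29 and 6.46. LIN28B blocks let-7 maturation in fetal cells, and IGF2BP1 to IGF2BP3 bind mRNAs in the embryo. SPINK1 averaged 2.85. TERT, the catalytic subunit of telomerase, lay 1.49, 1.45 and 1.55 above the median on 1 of 2 probe sets. SALL4, H19, REG3A and GOLM1 were not called, with 0.33, -0.19, -0.29 and -0.42.

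All 31 measured cell cycle and replication genes were called, 29 strongly, with a median of 6.17. TYMS, thymidylate synthase, lay 8.41, 8.26 and 8.40 above the median, PCNA, the polymerase clamp, 8.50, 8.18 and 8.36, and RRM2, a ribonucleotide reductase subunit, 8.28, 8.22 and 8.26. TOP2A, CDK1 and AURKA averaged 7.67, 7.66 and 7.65. The lowest members were CCNE2 at 1.77, E2F1 at 2.69 and CCNE1 at 4.41. Oncogenes and growth factor genes were called for 13 of 16. MYC lay 8.30, 8.25 and 8.14 above the median on 1 of 2 probe sets, the other lying at -0.33. CTNNB1, which encodes beta-catenin, averaged 7.73 and ERBB3 6.59. FGF19, MYCN and HGF averaged -0.43, -0.10 and 0.22. Tumour suppressors and cell cycle inhibitors were called for 14 of 17, led by ARID1A at 5.81, CDKN1B at 5.55 and KEAP1, with SOCS3, CDKN1C and CDKN2B lowest at -0.29, -0.01 and 0.35.

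Wnt target genes were called for 12 of 13, with a median of 6.04. After GLUL came DKK1, a Wnt antagonist, with 7.19, 7.20 and 7.11, SP5 with 6.84, 6.78 and 6.77, TNFRSF19 with a mean of 6.39, LGR5 with 6.37 and ZNRF3 with 6.08. Several of them, DKK1 and ZNRF3 included, encode inhibitors of the pathway that switches them on. LEF1, a transcription factor of the pathway, averaged -0.25.

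Of the markers of other liver cells, those of endothelium were not called in 10 of 10 genes, with a mean level between -0.63 and 0.66. Leukocyte and Kupffer cell markers were called in 1 of 13, LYZ, which encodes lysozyme and lay 8.21, 7.65 and 7.89 above the median, while PTPRC, CD68 and CD14 averaged -0.23, -0.21 and 0.06. Mesenchymal markers were called in 3 of 13: ACTA2 at 5.17, TAGLN at 3.54 and COL1A1 at 1.27. ACTA2 was called on 1 of its 3 probe sets, TAGLN on 2 of 3 and COL1A1 on 1 of 5. The mean of COL1A1 lay below that of the non-specific control of 24 GC bases, 1.35. COL1A2, COL3A1 and VIM averaged -0.06, -0.37 and -0.47. Bile duct markers were split, with SPP1 at 8.15, EPCAM at 7.47, KRT19 at 7.02 and SOX9 at 7.01 called and KRT7, CFTR, MUC1 and AQP1 between -0.44 and -0.01. Genes of other tissues were called in 4 of 31, KRT10 at 6.56, ACTA1 at 3.81, CRYAA at 2.59 and MBP at 2.40. ACTA1 and ACTA2 are close copies of the cytoplasmic actin ACTB, which averaged 9.70, and its part in their signal was not tested.

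Most genes varied little between the 3 DMSO arrays, and the genes that varied most did so in 1 order. YEATS4, a chromatin reader, had the largest SD of the called genes (0.64), with 4.22, 2.95 and 3.50 on arrays 1 to 3. ZNG1B followed with 4.19, 2.93 and 3.69, IFT74 with 2.86, 1.65 and 2.54, SECISBP2L with 3.01, 1.79 and 2.22 and LINC01003 with 2.82, 1.72 and 2.73. GTF2H3, NR1D2, MIGA1, ALDOC and SIKE1 had SDs between 0.57 and 0.61. All 10 were highest on DMSO array 1 and lowest on DMSO array 2. Of the 100 called genes with the largest SD, 84 were highest on array 1 and 88 lowest on array 2, and of all 9553 called genes 5377 were highest on array 1. The interquartile range of all probe sets lay between 2.87 and 3.08 log2 units on the 27 fenbuconazole arrays, and was 3.09, 2.93 and 3.00 on DMSO arrays 1 to 3, in the same order as these genes. The signal of the ACTB control at its 3′ end exceeded that at its 5′ end by 0.57, 0.31 and 0.34, and that of GAPDH by -0.10, -0.10 and -0.06. The array medians, which were subtracted to give the levels, ran in the reverse order, at 2.97, 3.04 and 3.01 on DMSO arrays 1 to 3. The part of these medians, of the array spread and of the 3′ signal in these differences was not tested.

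**Figure D4:**
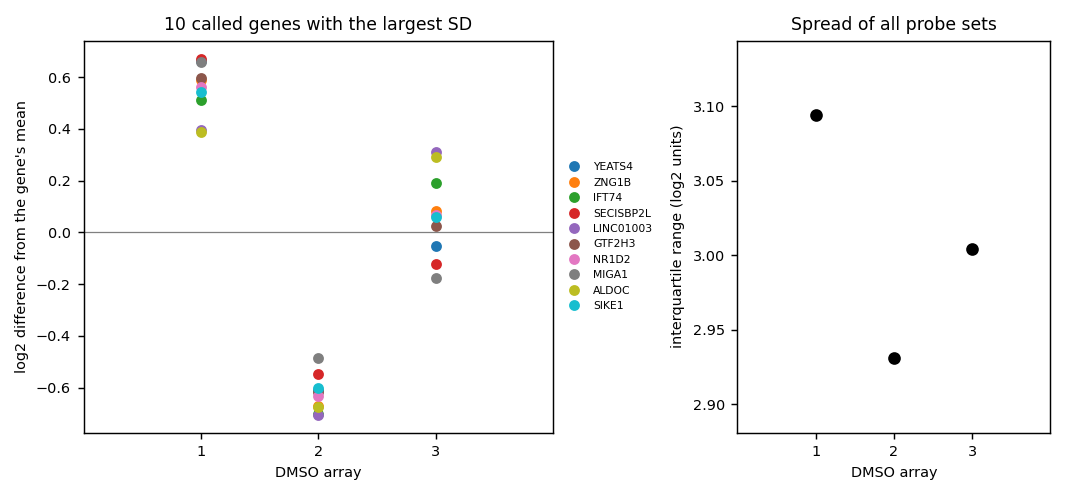
Left, the 10 called genes with the largest SD over the 3 DMSO arrays, each point a gene's distance from the array median minus its own mean distance (log2 units). Right, the interquartile range of all probe sets (log2 units, axis not from 0). Array 1 is highest and array 2 lowest in both.

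The treated arrays of the same normalization set were compared with this baseline. Fenbuconazole is a triazole fungicide aimed at fungal sterol demethylase, the fungal counterpart of CYP51A1. The mean over the 9 doses was set against DMSO with limma, 27 arrays against 3, and 0 of 19774 genes passed an adjusted p of 0.05 (0.0%), with 490 at an unadjusted p under 0.05. The mean of the 3 lowest doses, 9 arrays against 3, gave 0 genes as well (0.0%). There limma gave 541 genes at an unadjusted p under 0.05 and a lowest adjusted p of 0.414. Both unadjusted counts are below the share of 0.05 that such a p lets through when no gene differs. The trended and robust fit of limma gave 0 genes in both comparisons. A mean over doses does not isolate what the highest doses did. For the genes called above the median, the 95% interval reached 0.156 log2 units to each side for the median gene in the comparison over all doses, before any adjustment for the number of genes. Of the 303 listed genes called above, 300 differed by less than 0.2 log2 units over all doses, and the other 3 were CYP1A1, CYP2U1 and HMGCS1.

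ALB lay between 9.82 and 10.28 with a median of 10.09 on the 27 treated arrays, against 9.92 to 10.19 on DMSO arrays, and its difference was 0.00 (95% interval -0.14 to 0.15, limma, adjusted p = 1). AFP lay between 9.32 and 9.65 with fenbuconazole, against 9.43 to 9.49 with DMSO, and APOA1 between 9.47 and 9.79, against 9.58 to 9.73. All 3 markers thus spanned the DMSO values. CYP3A4 lay between 0.69 and 1.10 on treated arrays, 5 of which reached the line, against 0.87 to 0.95 on DMSO arrays. CYP2B6 lay between -0.32 and 0.52, against -0.29 to 0.23. CYP1A1 had the widest range, 1.30 to 3.43 with a median of 1.81 on treated arrays, against 1.33 to 1.81 on DMSO arrays, and its mean difference of 0.36 log2 units (95% interval 0.03 to 0.69) did not pass the threshold (limma, adjusted p = 1). Its high values came from the highest doses, with 2.21, 2.48 and 2.64 at 3 µM and 2.92, 3.37 and 3.43 at 10 µM, all above the 3 DMSO arrays, and no dose was tested alone. CYP51A1 lay between 6.55 and 7.06, against 6.49 to 6.75, and HMGCS1, which makes HMG-CoA for sterol synthesis, between 5.31 and 6.06, against 5.36 to 5.59. At 0.3 to 10 µM HMGCS1 lay between 5.65 and 6.06, above all 3 DMSO arrays. At 3 and 10 µM CYP51A1 lay between 6.78 and 7.06, also above all 3. Some arrays of both genes at lower doses did so as well. Over all genes, 9167 of the 9553 called with DMSO reached the line on all 27 treated arrays as well, and 9353 of the 10221 not called did so on 0 of them.

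**Figure D5:**
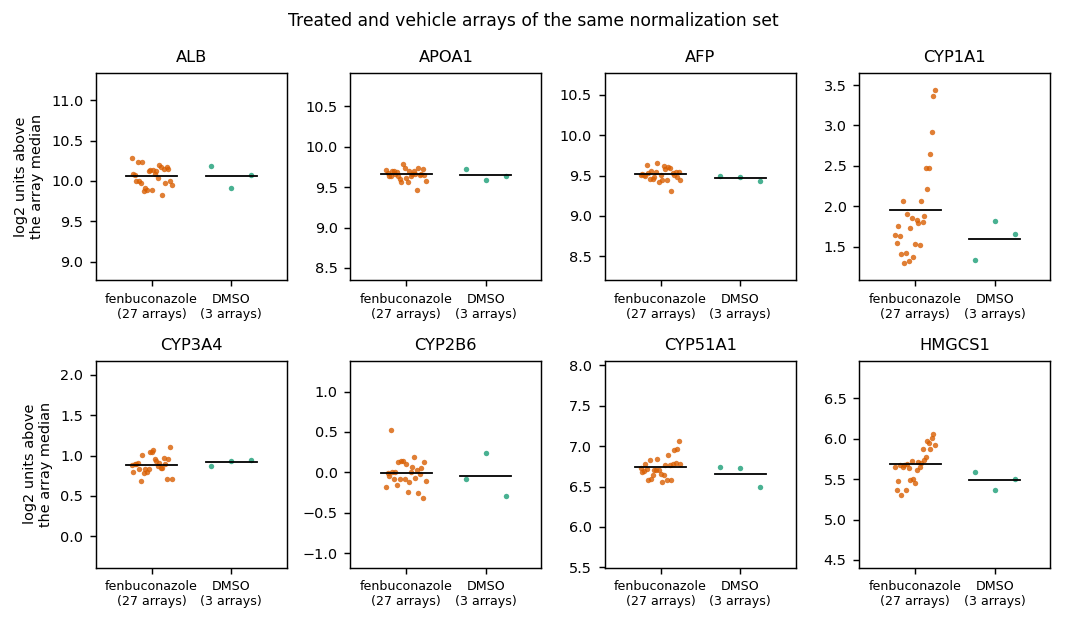
Levels on 27 fenbuconazole arrays (left in each panel, low to high dose from left to right) and 3 DMSO arrays (right) of 8 genes, in log2 units above the array median, with lines at the group means. All panels span the same width on the log2 scale. DMSO values lie within the range of treated ones in 7 panels, CYP51A1 being the exception with its lowest DMSO array at 6.49, and CYP1A1 spreads most.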

How the data were processed

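Total RNA of HepG2 cells was measured on Affymetrix 3′ expression arrays of the HT HG-U133+ PM type. The authors deposited log2 values, normalized by RMA within each compound's set per the labels, whose processing notes name RMA and Partek; their versions are not given in the sources used here, and the files name no genome build. RMA models probe signals jointly and scales arrays to 1 shared distribution, so levels are relative, and a change common to most genes cannot be seen. Of 90 columns, 0 matched no sample.

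A total of 102 control probe sets, 864 with several symbols and 12835 in no line of the gene table were left out of gene levels, and 40858 of the 40914 probe sets of 1 symbol were matched to RefSeq by Entrez identifier. Of 556 list entries, 495 were measured and the others were not analysed here. Calls used a threshold of 1 or 4 log2 units over the array median on all 3 arrays, with no test. The fenbuconazole contrasts were fitted to 30 columns in R 4.3.3 with limma 3.58.1 (lmFit and eBayes, two-sided, 1 mean per group, Benjamini-Hochberg over 19774 genes). Level calls, limma and the motif scan were checked on simulated data. Tables were handled with pandas in Python. The number of arrays, 3 per group, limits the precision.

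Members and lists were chosen with earlier results of these data known. Genes named were ALB, APOA1 and AFP, up to 6 highest and 3 lowest of each list, any member of the P450, oncofetal and transcription factor lists, the 10 highest and the 10 most variable called genes. CPS1, ASL, ARG1, GSTP1, ARNT, HMGCS1, KEAP1, C6, C8G, PTPRC, CD68, CD14, COL1A2, COL3A1, VIM, PYGL, KHK and the remaining members that stand outside the rule were chosen after their values were seen. Alternatives were other copies, probe set rules, references, thresholds, left-out arrays, variance settings and a replicate block. Normalization was separate for each set, so no test was made across sets.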

Additional observations from a re-analysis of the deposited data

How the results depend on the processing

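Counts of called genes changed by more than 1.5 times under 2 thresholds. Against the highest non-specific control, the one of 25 GC bases at 4.46 log2 units, the count was 4170 genes in all, 85 liver genes, 33 xenobiotic genes and 7 markers of other cells; the 66 tumour genes called there are within that factor of the 89. Against every control of up to 20 GC bases, an alternative chosen after seeing the data, 23 of 75 markers of other cells were called. That setting called 12008 genes in all, 155 liver, 81 xenobiotic and 92 tumour genes, each within that factor. Under the copies of the imazalil and 2,4-D sets, the mean over probe sets, the gene median as the reference and thresholds of 0.5 and 2 log2 units, the counts over all genes lay between 8326 and 10253, and those of the 4 kinds of list stayed within 1.5 times. The P450 list fell to 4 called genes with the gene median or a threshold of 2. The gene median lowered all levels by 0.92 log2 units and the mean over probe sets by 0.06. Without 1 DMSO array the count of all genes was 9597 to 9653, and 0 to 2 of 477 listed genes moved by more than their SD, as did 94 with the imazalil copies, 97 with the 2,4-D copies and 249 with the mean over probe sets. No called listed gene fell below the median under any of these settings.

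Both fenbuconazole contrasts gave 0 genes in every limma alternative run, those without 1 DMSO array or 1 replicate number included. With the replicate number as a block the count was 0 in both. Same-numbered deviations of DMSO and treated arrays correlated at -0.36 to 0.39 (median 0.14 over 27 pairs), those of different number at -0.37 to 0.37 (median -0.06 over 54), so the numbers were not taken to pair the arrays, although each of the 3 DMSO arrays correlated best on average with its own number.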

Other observations

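Some probe sets outside the gene levels were also above the median with vehicle alone. Of the 12835 probe sets in no line of the gene table, 1414 were called above the median (11%) and 475 strongly (3.7%), and of the 864 with several symbols 330 were called (38.2%). Probe sets of 1 symbol were called in 40.5% of cases.

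Probe sets of the same gene often disagreed. Of 280 listed genes with several probe sets, 196 had at least 1 called, and in 109 of these at least 1 other was not called. Listed genes called above rested on a probe set ending in x in 27 of 303 cases (8.91%), and listed genes not called in 21 of 174 (12.1%). Over all genes the shares were 6.79% of those called and 5.06% of those not called.

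The copies of each DMSO array in the other sets correlated with it at r = 0.9991 or 0.9992 across genes, with a median difference of 0.06 log2 units in the imazalil set and 0.11 in the 2,4-D set.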
